A study of Mus musculus with 6 samples.

Results

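The genes described here are 9 transcription regulators of innate lymphoid development, Nfil3, Id2, Id3, Tox, Tox2, Gata3, Rora, Zbtb16 and Hhex, followed in lymphocytes sorted from the mouse mammary gland late in pregnancy. They were taken by symbol, and 9 of the 55450 genes in the deposited table matched, each by a single entry. Bulk RNA sequencing was done on 3 libraries of double negative (DN) NK1.1+ lymphocytes and 3 libraries of CD8 beta+ T cells, all from pregnant mice at E18.5, an embryonic day near term. NK1.1 is carried on the surface of natural killer (NK) cells, of type 1 innate lymphoid cells (ILC) and of some T cells. One label field calls the DN cells lymphocytes and another T cells. The labels do not name the markers that these cells lack, and give no strain, age or genotype, nor whether a library came from 1 mouse or from pooled mice. The study set unconventional lymphocytes of the mammary epithelium beside conventional T cells of the same tissue, and the comparison here asks how the 9 regulators differ between them.

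Innate lymphoid cells and NK cells arise from lymphoid progenitors that give up the T and B cell fates. E proteins, the basic helix-loop-helix factors that drive T and B cell programs, are held in check by the inhibitors ID2 and ID3, which bind them and cannot bind DNA themselves. NFIL3, a basic leucine zipper repressor, acts upstream of ID2 and is needed for most NK cells, TOX acts early in the same lineages, and GATA3, RORα and PLZF (the product of Zbtb16) shape helper-like ILC and some innate-like T cells.

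Library totals ran from 11440721 to 12820875 counts in DN NK1.1+ libraries and from 7961360 to 14367299 counts in CD8 beta+ libraries, and 1 count was worth between 0.0722 and 0.13 CPM (counts scaled to a common library size). CPM values are scaled by TMM factors. Klrb1c, which encodes NK1.1, averaged 639 ± 20.8 CPM in DN NK1.1+ libraries and 37.1 ± 5.68 CPM in CD8 beta+ libraries, and Cd8b1, for the CD8 beta chain, averaged 2.57 ± 1.58 CPM in DN NK1.1+ libraries and 949 ± 57.8 CPM in CD8 beta+ libraries (SD, n = 3 each, here and below). Both follow the sort. Cd8a, for the CD8 alpha chain, was lower in DN NK1.1+ libraries (log2 fold change −2.49, adjusted p = 4.40e-10 in edgeR's test). Cd4 did not pass that test (−0.67, adjusted p = 0.714). These 4 genes summed to between 771 and 823 CPM in DN NK1.1+ libraries and to between 1784 and 2004 CPM in CD8 beta+ libraries. In DN NK1.1+ libraries, Ncr1, a defining NK and ILC1 marker, averaged 273 ± 20.6 CPM. Trac and Trdc, the constant genes of alpha-beta and gamma-delta T cell receptors, averaged 241 ± 12.9 and 88.3 ± 11.2 CPM there. These libraries thus held T cell receptor transcripts beside those of an NK and ILC1 marker. Whether the same cells carried both cannot be told from bulk RNA. In bulk RNA, fewer cells of a type and less RNA per cell cannot be told apart. Nothing in the labels ties the libraries to separate mice, and p-values therefore describe only how far these libraries vary, which may be technical.

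Of the 9 genes, 8 passed the filter on low counts, and Tox2 did not. Of the 8 tested, Nfil3, Hhex and Gata3 were higher and Rora was lower in DN NK1.1+ libraries, and the other 4 did not pass the test (edgeR's quasi-likelihood test, Benjamini-Hochberg adjusted p under 0.05 over 13171 tested genes). Over all tested genes 13.8% were called, 7.84% as higher and 5.99% as lower. The median log2 fold change of the 8 genes was 0.37, against −0.0033 over all tested genes. The libraries of one group lay wholly above or below those of the other for these 4 called genes among the 8, where 30.6% of all tested genes did so. The members were chosen with earlier results of these data known, so that neither count is evidence of its own about the group of genes.

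**Figure D1:**
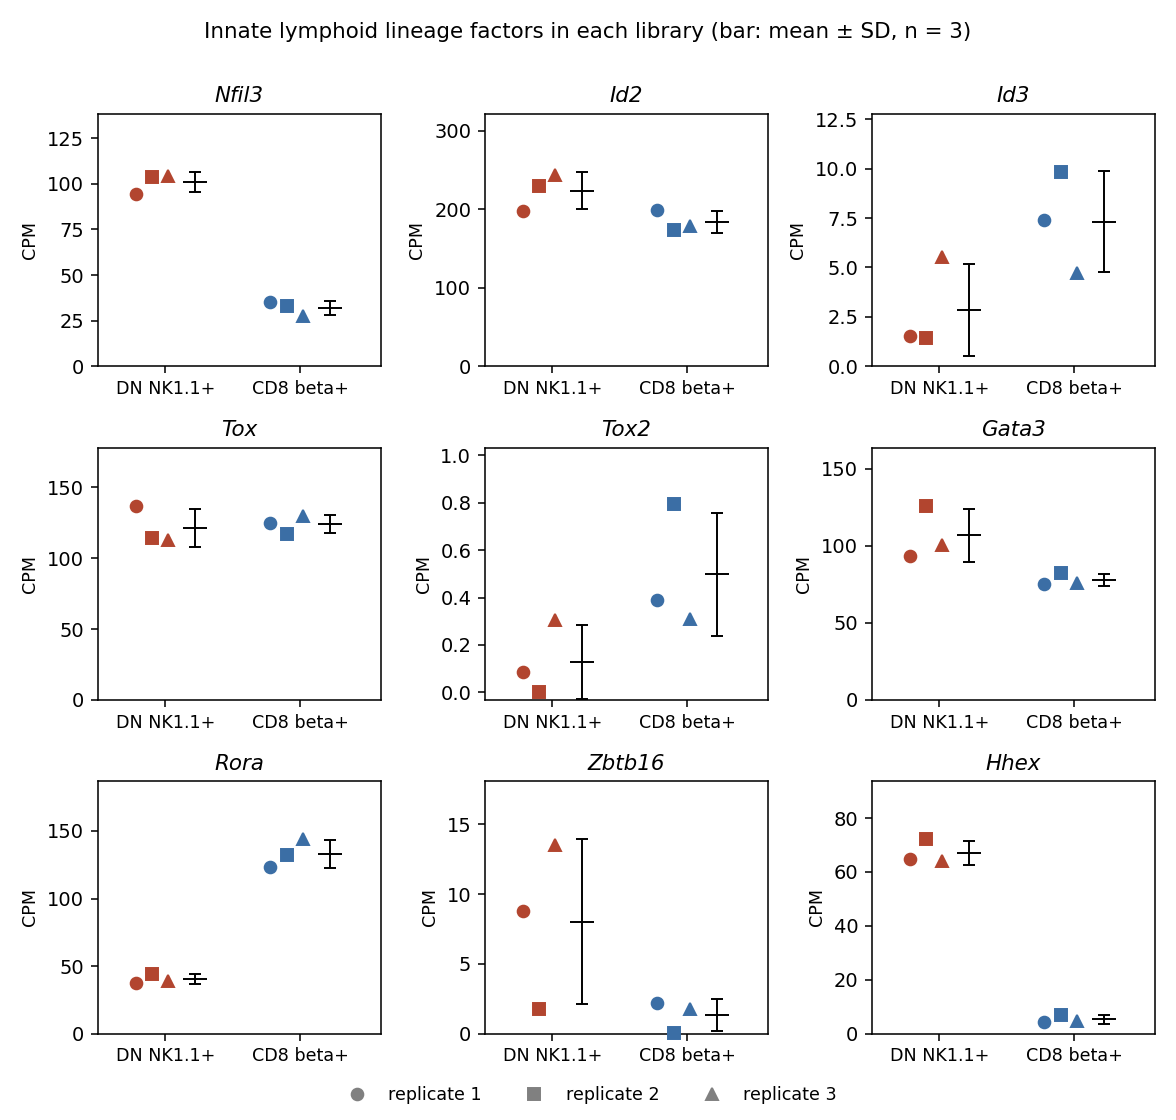
CPM of each of the 9 genes (vertical axes, linear, separate for each gene) in the 3 DN NK1.1+ libraries (left, red) and the 3 CD8 beta+ libraries (right, blue), with the marker shape giving the replicate and the black bar the mean ± SD. Nfil3, Hhex, Gata3 and Rora separate the groups; Id2, Id3, Tox and Zbtb16 overlap between them, and Tox2 stays under 1 CPM in every library.

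The stretches of DNA before the starts of the 3 genes whose calls held under every alternative tried are shown first, because they are the members that set the groups apart most firmly. Each is the 250 bases before the RefSeq start (build GRCm38.p6, that is mm10), read 5′ to 3′ on the gene's own strand. Capitals mark letters of motifs linked to members or their partners: the NFIL3 D-box (TTATGTAA or TTACGTAA), the ROR half-site (AGGTCA), the GATA site (the letters GATA after A or T and before A or G) and the E-box (CANNTG), each searched on both strands.
Nfil3, chr13:52981040-52981289, minus strand: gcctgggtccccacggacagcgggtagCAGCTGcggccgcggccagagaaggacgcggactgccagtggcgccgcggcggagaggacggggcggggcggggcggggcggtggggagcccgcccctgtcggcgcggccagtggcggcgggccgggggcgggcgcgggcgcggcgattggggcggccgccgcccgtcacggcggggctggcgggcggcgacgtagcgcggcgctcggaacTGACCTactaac
Hhex, chr19:37434591-37434840, plus strand: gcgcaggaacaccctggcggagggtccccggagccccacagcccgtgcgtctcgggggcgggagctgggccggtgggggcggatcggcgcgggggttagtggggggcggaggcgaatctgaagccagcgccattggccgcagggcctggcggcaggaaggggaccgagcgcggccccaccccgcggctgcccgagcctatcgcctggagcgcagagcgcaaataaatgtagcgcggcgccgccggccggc
Rora, chr9:68653536-68653785, plus strand: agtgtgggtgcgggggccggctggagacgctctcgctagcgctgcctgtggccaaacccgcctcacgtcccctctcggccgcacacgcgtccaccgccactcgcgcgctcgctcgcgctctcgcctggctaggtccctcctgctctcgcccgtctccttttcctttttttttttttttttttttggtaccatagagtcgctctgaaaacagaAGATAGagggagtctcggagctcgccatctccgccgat

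The Nfil3 window held a ROR half-site (TGACCT on this strand) that begins 12 bases before the start and an E-box (CAGCTG) that begins 223 bases before it. The Rora window held a GATA site (AGATAG) that begins 38 bases before the start, and the Hhex window held none of these letters. Over all 32851 windows of this length, 14% held the ROR half-site, 26.5% a GATA site, 66.2% an E-box and 0.931% a D-box. All 3 windows were rich in G and C, at 81.6% for Nfil3, 76% for Hhex and 61.2% for Rora, against a median of 52.4% over all windows. They held 43, 32 and 26 CG dinucleotides in that order of genes, against a median of 6. Windows were given for 7 of the 9 genes, without Tox and Zbtb16. Which start of a gene was in use cannot be read from counts per gene, and Rora has 6 annotated transcripts.

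Nfil3 was about 3 times as high in DN NK1.1+ libraries. Its gene (ENSMUSG00000056749) lies on mm10 chromosome 13 from 52967209 to 52981073. Nfil3 stood at 94.5, 104 and 104 CPM in DN NK1.1+ libraries and at 35.1, 33.2 and 27.7 CPM in CD8 beta+ libraries. Every DN NK1.1+ library lay far above every CD8 beta+ library, and the spread within DN NK1.1+ libraries was 5.49% of their mean. The log2 fold change was 1.66 (SE 0.125, adjusted p = 2.52e-07 in edgeR's test), or 3.16-fold, and 6.08% of all tested genes changed by more in either direction. Per length of exon, Nfil3 was at the 94.3rd percentile of tested genes in DN NK1.1+ libraries and at the 80.5th in CD8 beta+ libraries.

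Hhex had the largest change of the 9. It encodes a homeobox repressor known from haematopoietic and endothelial development, and in mice it takes part in the making of lymphoid cells. The gene (ENSMUSG00000024986) lies on chromosome 19 from 37434810 to 37440731. Hhex reached 64.8, 72.1 and 63.9 CPM in DN NK1.1+ libraries, against 4.16, 7.08 and 4.63 CPM in CD8 beta+ libraries. The lowest DN NK1.1+ library stood well clear of the highest CD8 beta+ library. This was a log2 fold change of 3.63 (SE 0.201, adjusted p = 7.67e-09 in edgeR's test), or 12.3-fold, and 1.15% of tested genes changed by more. It was 3.92 without CD8 beta+ replicate 2, the library with the most Hhex in its group. Hhex is also expressed in B cells, endothelium and myeloid cells, whose markers stood as follows. The 7 B cell markers summed to between 273 and 320 CPM in DN NK1.1+ libraries and to between 173 and 256 CPM in CD8 beta+ libraries, and went both ways. Ighm, for an immunoglobulin heavy chain and the largest part of that sum, averaged 271 ± 21.7 CPM in DN NK1.1+ libraries and 186 ± 31.4 CPM in CD8 beta+ libraries and rose (adjusted p = 0.00603), while Cd79b, for a chain of the B cell receptor, averaged 4.35 ± 1.42 CPM in DN NK1.1+ libraries and 10.9 ± 3.07 CPM in CD8 beta+ libraries and fell (adjusted p = 0.018; 0.00366 to 0.134 over the alternatives, with the call lost without DN NK1.1+ replicate 2 or CD8 beta+ replicate 1). Of the defining markers, the B cell factor Pax5 averaged 3.44 ± 2.69 CPM in DN NK1.1+ libraries and 8.64 ± 5.05 CPM in CD8 beta+ libraries, and none of them passed the test. The endothelial gene Cdh5 averaged 3.98 ± 4.23 CPM in DN NK1.1+ libraries and 1.89 ± 2.51 CPM in CD8 beta+ libraries. Pecam1, shared by endothelium and leukocytes, averaged 58.9 ± 9.51 CPM in DN NK1.1+ libraries and 31.8 ± 8.05 CPM in CD8 beta+ libraries and passed the test (adjusted p = 0.00567). The macrophage receptor gene Csf1r averaged 28.3 ± 9.2 CPM in DN NK1.1+ libraries and 15.3 ± 3.78 CPM in CD8 beta+ libraries (adjusted p = 0.026, with the call lost without DN NK1.1+ replicate 1 or CD8 beta+ replicates 1 or 2, and 5.93e-04 to 0.181 over the alternatives). Of 10 tested myeloid markers 2 rose, Csf1r and Itgax. The other defining ones, Lyz2 and Adgre1, did not pass edgeR's test (log2 fold changes 0.37 and 0.24, adjusted p = 0.646 and 0.818). The part of these cells in the Hhex difference was not tested.

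Rora fell by a factor close to the rise of Nfil3. It encodes RORα, a nuclear receptor that activates transcription, known for type 2 ILC and, in the clock, for driving Arntl and Nfil3. The gene (ENSMUSG00000032238) lies on chromosome 9 from 68653786 to 69388246. DN NK1.1+ libraries had 37.8, 44.2 and 39.1 CPM, and CD8 beta+ libraries had 123, 132 and 144 CPM. No DN NK1.1+ library came near a CD8 beta+ library. On the log2 scale the change was −1.72 (SE 0.114, adjusted p = 5.23e-08 in edgeR's test), so that the level was 3.30-fold lower in DN NK1.1+ libraries. The antisense gene Gm15511 overlaps 0.627% of its exon length, and whether reads were counted by strand is not given in the sources used here.

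Gata3 was slightly higher in DN NK1.1+ libraries. GATA3, a zinc finger factor, is needed for helper-like ILC and T cells, and it is also a defining factor of luminal mammary epithelium. The gene (ENSMUSG00000015619) lies on chromosome 2 from 9857078 to 9890034. DN NK1.1+ libraries had 93.4, 126 and 101 CPM, and CD8 beta+ libraries had 75, 82.1 and 75.8 CPM. The groups did not overlap, and replicate 2 was the highest of the DN NK1.1+ libraries. The antisense gene Gm13256 overlaps 3.9% of its exon length and 9230102O04Rik, on the same strand, 1.94%. Its log2 fold change was 0.46 (SE 0.122, adjusted p = 0.019 in edgeR's test), and 35.2% of tested genes changed by more. The call was lost without DN NK1.1+ replicate 2 (adjusted p = 0.142), CD8 beta+ replicate 1 (0.1), replicate 2 (0.0517) or replicate 3 (0.0528), within a range of 0.00326 to 0.142 over all alternatives. Luminal and milk protein genes summed to 386, 1041 and 2085 CPM in DN NK1.1+ libraries and to 996, 668 and 860 CPM in CD8 beta+ libraries. Of the 14 luminal and milk genes 11 were tested and 2 rose, Epcam and Esr1, while the defining markers did not pass. Of these, Csn2 averaged 483 ± 395 CPM in DN NK1.1+ libraries and 372 ± 78.3 CPM in CD8 beta+ libraries, and Krt8 averaged 4.12 ± 4 CPM in DN NK1.1+ libraries and 3.87 ± 3.02 CPM in CD8 beta+ libraries. The part of luminal cells in the Gata3 difference was not tested.

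**Figure D2:**
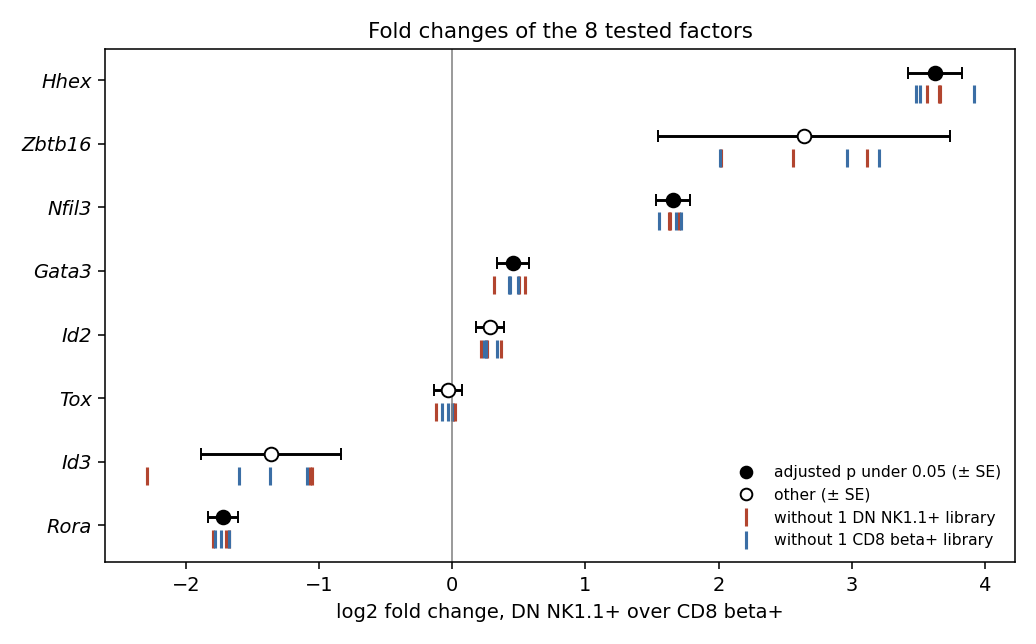
Log2 fold changes (horizontal axis, DN NK1.1+ over CD8 beta+) of the 8 tested genes, with the SE as bars and filled points for adjusted p under 0.05. Ticks under each point give the value when a library is left out; they stay close to the point for Hhex, Nfil3, Gata3, Id2, Tox and Rora, and reach −2.29 for Id3, whose value from all libraries was −1.36.

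Id2 was high in both groups and Id3 low. Id2, for the inhibitor that favours innate lymphoid fates, lies on chromosome 12 from 25093799 to 25097140 (ENSMUSG00000020644). It had 197, 229 and 244 CPM in DN NK1.1+ libraries and 199, 173 and 179 CPM in CD8 beta+ libraries. DN NK1.1+ replicate 1 lay within the CD8 beta+ range and the others above it. This came to a log2 fold change of 0.28 (SE 0.104, adjusted p = 0.093 in edgeR's test), and no alternative tried brought the adjusted p under the threshold (0.0527 to 0.323). Per length, Id2 stood at the 96.9th percentile of tested genes in DN NK1.1+ libraries and at the 96.2nd in CD8 beta+ libraries.

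Id3, whose product holds E proteins in check in naive T cells and in developing gamma-delta T cells, lies on chromosome 4 from 136143497 to 136145755 (ENSMUSG00000007872). It had 1.55, 1.42 and 5.54 CPM in DN NK1.1+ libraries and 7.41, 9.82 and 4.74 CPM in CD8 beta+ libraries. Replicate 3 of the DN NK1.1+ libraries lay within the CD8 beta+ range and the other two lay below it. The log2 fold change was −1.36 (SE 0.524, adjusted p = 0.112 in edgeR's test). Without DN NK1.1+ replicate 3 it was −2.29 with adjusted p = 0.0067, and without the filter on low counts the adjusted p was 0.0251, within a range of 0.0067 to 0.367 over all alternatives. In the CD8 beta+ libraries, the B cell marker Pax5 was at 12.3, 10.7 and 2.88 CPM, and in DN NK1.1+ libraries at 6.21, 3.27 and 0.834 CPM. Basal mammary markers summed to 10.95, 24.2 and 206 CPM in DN NK1.1+ replicates 1, 2 and 3. In CD8 beta+ replicates 1, 2 and 3 they summed to 18.7, 15.7 and 154 CPM. Id3 was highest of its group in DN NK1.1+ replicate 3 and lowest of its group in CD8 beta+ replicate 3. The part of B cells and of mammary cells in the Id3 difference was not tested.

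The balance of the Id pair can be read within each library, free of library size. The log2 ratio of Id2 to Id3 counts was 6.95, 7.29 and 5.45 in DN NK1.1+ libraries (mean 6.56 ± 0.977) and 4.74, 4.14 and 5.22 in CD8 beta+ libraries (mean 4.70 ± 0.545). All DN NK1.1+ libraries had a higher ratio than all CD8 beta+ libraries, with a difference of 1.86. The two-sided exact permutation test gave p = 0.1, the smallest that 3 libraries against 3 allow, so the design cannot pass the threshold. The other Id genes were scarcely counted: Id1 had 2 counts over the DN NK1.1+ libraries and 19 over the CD8 beta+ libraries, and Id4 had 16 over the DN NK1.1+ libraries and 19 over the CD8 beta+ libraries.

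The E proteins that ID2 and ID3 bind are encoded by Tcf3, Tcf4 and Tcf12, and 1 of the 3, Tcf4, rose while none fell (0 also at an unadjusted p under 0.05 in edgeR, in DESeq2 and in limma-voom). Tcf4, for the factor E2-2, had 25.9, 22.8 and 18.1 CPM in DN NK1.1+ libraries and 4.81, 5.49 and 9.37 CPM in CD8 beta+ libraries (log2 fold change 1.76, SE 0.272, adjusted p = 3.32e-04 in edgeR's test). Tcf12, for HEB, averaged 312 ± 29.4 CPM in DN NK1.1+ libraries and 294 ± 4.61 CPM in CD8 beta+ libraries (adjusted p = 0.654). Tcf3, for E2A, averaged 24.5 ± 7.11 CPM in DN NK1.1+ libraries and 29.8 ± 0.963 CPM in CD8 beta+ libraries (adjusted p = 0.448). Per kb of exon, the level of Id2 was 91.6 ± 9.76 CPM in DN NK1.1+ libraries and 75.4 ± 5.64 CPM in CD8 beta+ libraries, and that of Tcf12, the highest of the 3 E proteins, was 20.1 ± 1.89 CPM in DN NK1.1+ libraries and 18.9 ± 0.297 CPM in CD8 beta+ libraries. Of 11 genes listed as regulated by E proteins in lymphocytes, 5 were tested, none rose (0 at an unadjusted p under 0.05, in DESeq2 and in limma-voom) and 1 fell. It was Foxo1, for a forkhead factor of naive T cells, at 176 ± 7.44 CPM in DN NK1.1+ libraries and 303 ± 37.7 CPM in CD8 beta+ libraries (log2 fold change −0.78, adjusted p = 8.34e-05). Il7r, for a chain of the IL-7 receptor, averaged 94.7 ± 20.9 CPM in DN NK1.1+ libraries and 314 ± 173 CPM in CD8 beta+ libraries and did not pass (adjusted p = 0.174). It passed in 4 of 16 alternatives (4.06e-06 to 0.379 over all), namely DESeq2 (adjusted p = 0.0204), limma-voom (0.0169), the not robust fit (0.00907) and the fit without CD8 beta+ replicate 3 (4.06e-06). The count of lower genes was 2 without DN NK1.1+ replicate 2 and 3 without CD8 beta+ replicate 3.

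Tox differed between the groups by less than its spread within them. TOX, a high mobility group box factor, is needed for NK and other innate lymphoid cells and is raised by lasting stimulation of T cells. The gene (ENSMUSG00000041272) lies on chromosome 4 from 6686353 to 6991557. It had 137, 115 and 113 CPM in DN NK1.1+ libraries and 125, 117 and 129.6 CPM in CD8 beta+ libraries, and the libraries of the groups interleaved. This gave a log2 fold change of −0.03 (SE 0.106, adjusted p = 0.911 in edgeR's test), and its sign turned under some alternatives. The antisense gene Gm11802 overlaps 3.42% of its exon length. Tox2, for a related factor that in human cells takes part in NK cell maturation (ENSMUSG00000074607, chromosome 2 from 163203125 to 163324170), held 1, 0 and 4 counts in DN NK1.1+ libraries and 3, 11 and 3 in CD8 beta+ libraries. The count of 0 allows up to 0.251 CPM in that library, counting error only. The log2 ratio of Tox to Tox2 counts averaged 9.95 ± 1.53 in DN NK1.1+ libraries and 7.91 ± 0.696 in CD8 beta+ libraries, with overlap between the groups (exact permutation p = 0.2, two-sided). The difference of 2.03 became 1.298 without DN NK1.1+ replicate 2 and 1.297 with a pseudocount of 2. Of the family, Tox4 averaged 86.1 ± 7.35 CPM in DN NK1.1+ libraries and 88.7 ± 8.13 CPM in CD8 beta+ libraries (adjusted p = 0.86). Tox3 had 4 counts over DN NK1.1+ libraries and 0 over CD8 beta+ libraries.

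Of 14 genes tied to TOX in stimulated or exhausted T cells, all were tested, 4 rose and 5 fell, with a median log2 fold change of 0.06. Among those that rose were Cd244a, for the receptor 2B4, at 236 ± 19.4 CPM in DN NK1.1+ libraries and 44.6 ± 8.84 CPM in CD8 beta+ libraries, and the NR4A genes. Nr4a2 averaged 906 ± 63.1 CPM in DN NK1.1+ libraries and 489 ± 63.6 CPM in CD8 beta+ libraries, with adjusted p = 3.70e-05 in edgeR's test. The call of Nr4a1 was lost without CD8 beta+ replicate 1 (adjusted p = 0.052; 2.17e-08 to 0.052 over all alternatives). Pdcd1, Ctla4, Tcf7, Nfatc2 and Nfatc3 fell. Ctla4, for an inhibitory receptor, averaged 7.27 ± 1 CPM in DN NK1.1+ libraries and 25.2 ± 8.65 CPM in CD8 beta+ libraries (log2 fold change −1.80), and Nfatc2, for a calcium-dependent factor that acts before TOX in T cells, averaged 153 ± 7.22 CPM in DN NK1.1+ libraries and 231 ± 4.27 CPM in CD8 beta+ libraries (−0.59). The call of Nfatc3 held in 11 of 16 alternatives (adjusted p 0.0033 to 0.112 over all). Among the settings that lost it were those without DN NK1.1+ replicates 1 or 2 or CD8 beta+ replicates 2 or 3. The inhibitory receptor genes Havcr2, Lag3 and Tigit and the ectoenzyme gene Entpd1 did not pass the test.

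Zbtb16 varied more within DN NK1.1+ libraries than any other tested member except Id3. It encodes PLZF, the factor of natural killer T cells, of some gamma-delta T cells and of ILC precursors, and lies on chromosome 9 from 48654297 to 48836222 (ENSMUSG00000066687). It had 8.79, 1.76 and 13.5 CPM in DN NK1.1+ libraries and 2.21, 0.0722 and 1.75 CPM in CD8 beta+ libraries. The DN NK1.1+ replicates 1 and 3 lay above all CD8 beta+ libraries, and replicate 2 lay among them. Its log2 fold change was 2.64 (SE 1.1, adjusted p = 0.201 in edgeR's test). That change ran from 2.01 without CD8 beta+ replicate 2, and 2.02 without DN NK1.1+ replicate 3, to 3.44 in limma-voom. Without the filter on low counts the adjusted p was 4.65e-04 (4.42e-04 to 0.363 over all alternatives), and the gene was not tested with the stricter filter. In DN NK1.1+ replicates 1, 2 and 3, Trdc was at 85.2, 101 and 79.0 CPM and Trac at 256, 234 and 233 CPM. The part of gamma-delta and alpha-beta T cells in the Zbtb16 levels was not tested. Basal mammary markers summed to between 10.95 and 206 CPM in DN NK1.1+ libraries and to between 15.7 and 154 CPM in CD8 beta+ libraries, highest in replicate 3 of each group, and their part in Zbtb16 was not tested. Of 14 genes listed with PLZF in innate-like T cells, 12 were tested, 2 rose and 7 fell. The largest changes were in Slamf1, Plac8, Icos and Slamf6, all lower. Plac8 averaged 20.3 ± 3.42 CPM in DN NK1.1+ libraries and 179.6 ± 15.3 CPM in CD8 beta+ libraries (log2 fold change −3.14). Slamf6, for a receptor that aids the selection of natural killer T cells, averaged 12.5 ± 4.1 CPM in DN NK1.1+ libraries and 42.8 ± 7 CPM in CD8 beta+ libraries (−1.78). For Slamf1, at 1.51 ± 1.24 CPM in DN NK1.1+ libraries and 49.1 ± 12.2 CPM in CD8 beta+ libraries, the change was −4.99, and leaving out DN NK1.1+ replicate 3 made it −5.83. The higher genes were Lgals3 and Zbtb7b, and the call of Zbtb7b was lost without DN NK1.1+ replicates 2 or 3 or CD8 beta+ replicates 1 or 2 (adjusted p up to 0.13; 7.90e-04 to 0.13 over all alternatives).

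**Figure D3:**
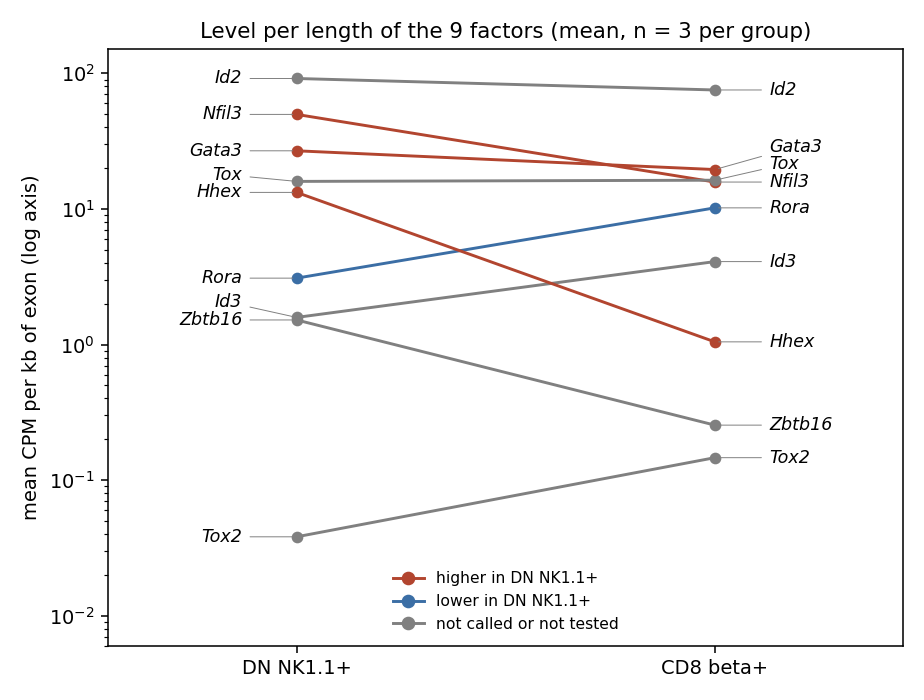
Mean CPM per kb of exon (vertical axis, log scale) of the 9 genes in DN NK1.1+ libraries (left) and CD8 beta+ libraries (right), n = 3 each, with lines joining a gene's means. Id2 leads in both groups; Hhex stands at 13.2 in DN NK1.1+ libraries against 1.05 in CD8 beta+ libraries, and Rora at 3.09 against 10.2.

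Levels of different genes were compared per kb of exon, taking all annotated exons of a gene as its length. In DN NK1.1+ libraries the order was Id2 (91.6 ± 9.76 CPM per kb), Nfil3 (49.8 ± 2.73), Gata3 (26.8 ± 4.29), Tox (16.0 ± 1.77), Hhex (13.2 ± 0.881), Rora (3.09 ± 0.262), Id3 (1.58 ± 1.31), Zbtb16 (1.52 ± 1.12) and Tox2 (0.0382 ± 0.046). Rora and Id3, and Id3 and Zbtb16, overlapped between libraries, and the other neighbours did not. In CD8 beta+ libraries the order was Id2 (75.4 ± 5.64), Gata3 (19.5 ± 0.984), Tox (16.3 ± 0.833), Nfil3 (15.8 ± 1.89), Rora (10.2 ± 0.778), Id3 (4.09 ± 1.42), Hhex (1.05 ± 0.31), Zbtb16 (0.254 ± 0.213) and Tox2 (0.146 ± 0.0765). There Tox and Nfil3, and Zbtb16 and Tox2, overlapped. The exon length of Rora, 13071 bases over its 6 transcripts, exceeds that of any single transcript in use, so its level per kb is a low estimate. Levels of the other genes per kb may be low for the same reason, and the order depends on these lengths. For Hhex the length was 5056 bases, in a gene that runs from 37434810 to 37440731.

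The nearest profiles over the 6 libraries were sought for the 4 called genes among 9117 protein-coding genes, as the root mean square distance between log2 CPM values centred on each gene's mean. For Nfil3 the nearest were Hvcn1 (distance 0.0543), for a proton channel, and Trio (0.0776). Rora was nearest to Cd28 (0.105), for the costimulatory receptor of T cells, and Plcg1 (0.113), for a phospholipase of receptor signalling. For Hhex they were the adaptor gene Lat2 (0.214) and the NK receptor gene Klra7 (0.22), with 3 genes in all within 0.25. Gata3 was nearest to Nfkbia (0.0434) and Rap2a (0.0469), but 1950 genes lay within 0.25 of it, against 39 for Nfil3 and 27 for Rora. Genes of the Klra family resemble each other, so the counts of Klra7 may hold reads of its relatives. The 6 libraries fall into only 2 groups, whose difference enters every distance.

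NFIL3 and RORα also belong to the circadian clock, in which NFIL3 represses and RORα activates, and of 19 clock genes 16 were tested, 3 rose and 2 fell. Bhlhe40, for a repressor that also acts in activated lymphocytes, had 396, 458 and 452 CPM in DN NK1.1+ libraries and 234, 226 and 333 CPM in CD8 beta+ libraries (log2 fold change 0.72, adjusted p = 0.00347 in edgeR's test), and kept its call under every alternative tried. Cry2, for a repressor of the core loop, averaged 19.7 ± 1.58 CPM in DN NK1.1+ libraries and 11.2 ± 0.96 CPM in CD8 beta+ libraries (0.82). Its call was lost without DN NK1.1+ replicate 1 (adjusted p = 0.0515; 0.00724 to 0.0515 over all alternatives). Nr1d2, for the repressor REV-ERBβ, which competes with RORα for the same sites, averaged 38 ± 0.236 CPM in DN NK1.1+ libraries and 58.4 ± 8.86 CPM in CD8 beta+ libraries (−0.62), with the call lost without CD8 beta+ replicate 2 (adjusted p = 0.0574; 5.15e-04 to 0.0574 over all alternatives). Arntl, for the activator BMAL1, averaged 18.0 ± 3.36 CPM in DN NK1.1+ libraries and 28.5 ± 2.94 CPM in CD8 beta+ libraries (−0.66, adjusted p = 0.0312). Per1 averaged 206 ± 24.5 CPM in DN NK1.1+ libraries and 157 ± 7.6 CPM in CD8 beta+ libraries (0.40, adjusted p = 0.0176). The call of Arntl was lost with library size only (adjusted p = 0.0503) and without DN NK1.1+ replicates 2 or 3 or any CD8 beta+ library. That of Per1 was lost without DN NK1.1+ replicate 2 or CD8 beta+ replicates 1 or 2. Over all alternatives the adjusted p ran from 0.0133 to 0.102 for Arntl and from 0.00608 to 0.107 for Per1. Nr1d1 had the largest change of the list but did not pass (log2 fold change −2.22, adjusted p = 0.128 in edgeR's test). It passed in 3 of 16 alternatives (0.00401 to 0.31 over all), among them DESeq2 (0.0206) and no filter (0.00401). The genes Dbp and Tef, whose products bind the same D-box as NFIL3, did not pass the test. Dbp averaged 6.47 ± 1.08 CPM in DN NK1.1+ libraries and 8.04 ± 1.07 CPM in CD8 beta+ libraries, and Tef 23.9 ± 1.52 CPM in DN NK1.1+ libraries and 24.3 ± 2.88 CPM in CD8 beta+ libraries. Of the clock genes, 1 was lower without DN NK1.1+ replicates 2 or 3 or CD8 beta+ replicate 1, and 0 without CD8 beta+ replicate 2. The hour at which tissue was taken is not given in the sources used here, and its part in these changes was not tested.

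Signals from IL-7 and IL-15 act on Nfil3 through STAT5, PDK1 and mTOR. Transcripts of 16 genes of these signals were all tested, and their levels do not measure the signals themselves. Of the 16, 2 rose and 1 fell, a share of 18.8% beside the 13.8% of all tested genes. Il2rb, for the chain that IL-15 and IL-2 receptors share, rose by 1.22 on the log2 scale (adjusted p = 2.69e-06). Stat3 rose by 0.42 (adjusted p = 0.00619, lost without CD8 beta+ replicate 2 at 0.0522; 3.60e-04 to 0.0522 over all alternatives). Il15ra, for the chain that binds and presents IL-15, was lower in every DN NK1.1+ library, at 7.84, 7.79 and 7.51 CPM, against 15.5, 15.9 and 18.9 CPM in CD8 beta+ libraries (log2 fold change −1.12, adjusted p = 0.00325). Pdpk1, for PDK1, averaged 168 ± 10.8 CPM in DN NK1.1+ libraries and 169 ± 14.4 CPM in CD8 beta+ libraries (adjusted p = 0.949). Stat5a, Stat5b and Mtor did not pass edgeR's test either (log2 fold changes −0.37, −0.28 and 0.35, adjusted p = 0.13, 0.226 and 0.153). The list had 1 higher gene without CD8 beta+ replicate 2, and 3 higher and 2 lower without CD8 beta+ replicate 3.

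**Figure D4:**
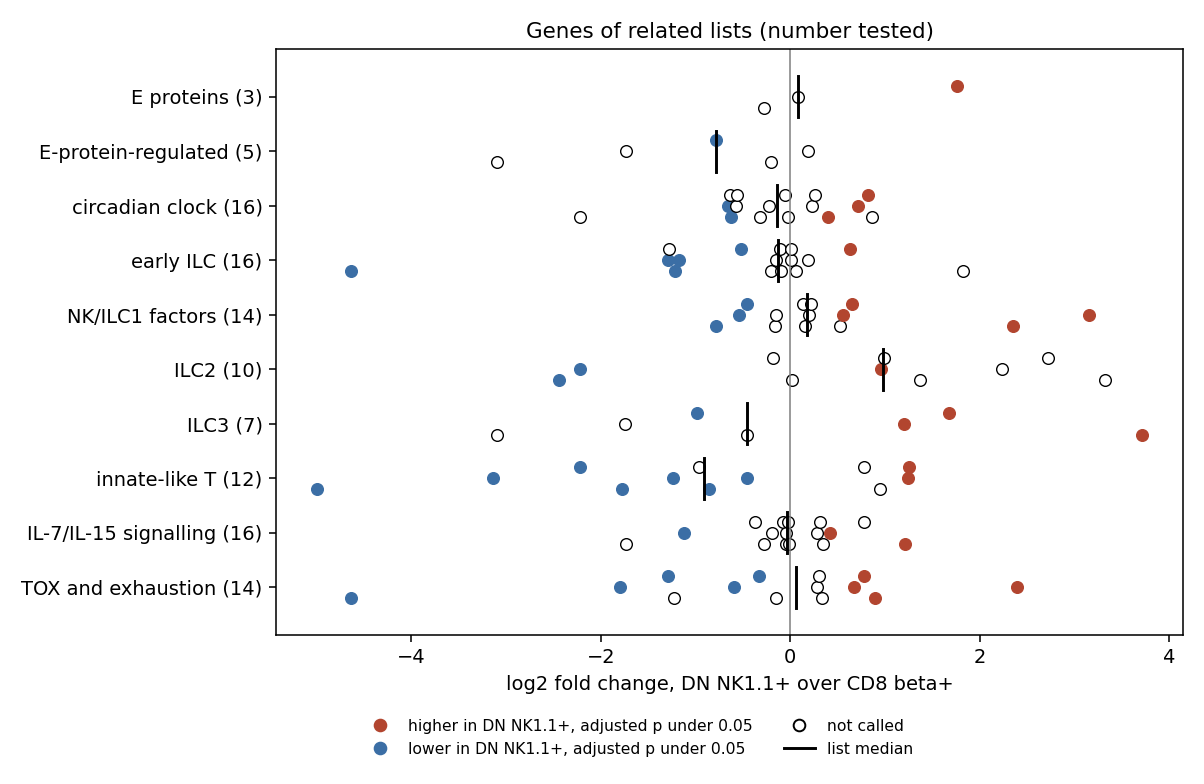
Log2 fold changes (horizontal axis, DN NK1.1+ over CD8 beta+) of the tested genes of 10 related lists, with the number tested in brackets, filled points for adjusted p under 0.05 and black strokes for list medians. Most lists hold genes on both sides of 0; the innate-like T cell list has 7 lower and 2 higher genes, and the early ILC list 5 lower and 1 higher.

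Other regulators of early ILC, 16 genes all tested, gave 1 higher and 5 lower gene. Runx1 rose to 106 ± 9.66 CPM in DN NK1.1+ libraries, against 68.5 ± 9.83 CPM in CD8 beta+ libraries (log2 fold change 0.64), while Runx2, for a related factor, averaged 55.2 ± 7.05 CPM in DN NK1.1+ libraries and 125 ± 10.9 CPM in CD8 beta+ libraries (−1.18). Tcf7, for the factor TCF-1, fell by 1.29 on the log2 scale, the integrin gene Itga4 by 1.22 and Ets1 by 0.52. Pdcd1, for PD-1, a marker of ILC precursors and of stimulated T cells, averaged 1.07 ± 1.11 CPM in DN NK1.1+ libraries and 27.5 ± 7.95 CPM in CD8 beta+ libraries (−4.64, and −5.98 when DN NK1.1+ replicate 3 was left out). Of 14 factors of NK cells and ILC1, all tested, 4 rose and 3 fell. Irf8 and Ikzf2, for IRF8 and Helios, rose by 3.16 and 2.35, and Zeb2 by 0.65, the last lost without CD8 beta+ replicates 1 or 2 (adjusted p = 0.0511 in each; 2.60e-05 to 0.0511 over all alternatives). Foxo1, given above, fell, as did Tgfbr2, for a receptor chain of TGF-beta, at 326 ± 17.1 CPM in DN NK1.1+ libraries and 447 ± 26.6 CPM in CD8 beta+ libraries (log2 fold change −0.45). The third was Prdm1, for BLIMP-1, at 52.8 ± 0.998 CPM in DN NK1.1+ libraries and 76.6 ± 19.2 CPM in CD8 beta+ libraries (−0.54, adjusted p = 0.0282). Its call was lost with library size only and without any DN NK1.1+ library or CD8 beta+ replicate 3 (0.0011 to 0.118 over all alternatives). Tbx21, for T-bet, averaged 230.4 ± 35.7 CPM in DN NK1.1+ libraries and 160.2 ± 36.1 CPM in CD8 beta+ libraries (adjusted p = 0.0572). It passed in 7 of 16 alternatives (5.49e-05 to 0.201 over all), among them DESeq2 (0.00586), limma-voom (0.0266), and the fits without DN NK1.1+ replicate 1 (0.0484) or CD8 beta+ replicate 3 (0.00116). The count of higher genes was 2 without CD8 beta+ replicates 1 or 2.

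Of 20 genes of the program that GATA3 and RORα drive in type 2 ILC, 10 were tested, 1 rose and 2 fell, with a median log2 fold change of 0.97. None rose without DN NK1.1+ replicate 2, and 2 rose without CD8 beta+ replicate 3. That median takes in 7 genes that did not pass the test. In summed CPM the list was lower in DN NK1.1+ libraries, at 116.3 to 136.4, against 436.6 to 454.5 in CD8 beta+ libraries. Bcl11b and Icos, both also T cell genes, had log2 fold changes of −2.44 and −2.22, and Il2ra, for a chain of the IL-2 receptor, rose by 0.96 (adjusted p = 0.0224). Its call was lost without DN NK1.1+ replicate 2 or CD8 beta+ replicates 1 or 2 (adjusted p up to 0.123; 0.00961 to 0.123 over all alternatives). Of the defining ILC2 markers, Il17rb had 0 counts in DN NK1.1+ and 1 in CD8 beta+ libraries, and Il1rl1, for the IL-33 receptor, was at 4.22, 0.922 and 0.683 CPM in DN NK1.1+ libraries and 0, 1.08 and 0 CPM in CD8 beta+ libraries. Of 15 genes of type 3 ILC, 7 were tested, 3 rose and 1 fell. Kit, for the stem cell factor receptor, had 14.2, 12.1 and 17.9 CPM in DN NK1.1+ libraries and 2.73, 0.578 and 0.309 CPM in CD8 beta+ libraries (log2 fold change 3.71, or 4.97 without CD8 beta+ replicate 1). Ahr and Maf, for factors that ILC3 share with other lymphocytes, rose by 1.67 and 1.2. Ltb, for lymphotoxin beta, fell by 0.99, and its call was lost without CD8 beta+ replicate 1 (adjusted p = 0.0503; 2.26e-07 to 0.0503 over all alternatives). The lower count was 0 without CD8 beta+ replicate 1, 2 without DN NK1.1+ replicate 2 or CD8 beta+ replicate 2 and 3 without CD8 beta+ replicate 3.

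Among 14 relatives and neighbours in function of the members, 7 were tested, 1 rose, Zbtb7b, and none fell (0 at an unadjusted p under 0.05, in DESeq2 and in limma-voom). Zbtb7b, for the factor ThPOK, had 7.93, 14.7 and 21.2 CPM in DN NK1.1+ libraries and 5.46, 7.15 and 5.87 CPM in CD8 beta+ libraries (log2 fold change 1.24, adjusted p = 0.0192). That call was lost in limma-voom too, where no relative was called. Zbtb7a averaged 95.7 ± 4.33 CPM in DN NK1.1+ libraries and 85.1 ± 4.29 CPM in CD8 beta+ libraries (adjusted p = 0.346). Gata2 had 21 counts over the DN NK1.1+ libraries and 0 over the CD8 beta+ libraries, and Gata1 had 1 over the DN NK1.1+ libraries and 0 over the CD8 beta+ libraries. Hlx, for a homeobox factor like Hhex, averaged 1.86 ± 0.217 CPM in DN NK1.1+ libraries and 0.909 ± 0.277 CPM in CD8 beta+ libraries (adjusted p = 0.431).

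Marker lists of other cell types stood beside these results as follows, by genes called and by summed CPM. NK and ILC1 markers had 8 of 9 higher (4091 to 4641 in DN NK1.1+ libraries and 586 to 672 in CD8 beta+ libraries), gamma-delta T cell markers 4 of 4 tested higher (419.8 to 457 in DN NK1.1+ libraries and 123 to 154 in CD8 beta+ libraries), and alpha-beta T cell markers 8 of 9 lower (1841 to 1970 in DN NK1.1+ libraries and 3316 to 3530 in CD8 beta+ libraries). The NK and ILC1 list holds Klrb1c, the gene of NK1.1, whose part in that count and sum follows from the sort. Myeloid markers had 2 of 10 higher (416 to 530.3 in DN NK1.1+ libraries and 220.1 to 335 in CD8 beta+ libraries), B cell markers 1 of 7 higher and 1 lower (273 to 320 in DN NK1.1+ libraries and 173 to 256 in CD8 beta+ libraries) and stromal markers 1 of 6 higher (49.2 to 176 in DN NK1.1+ libraries and 48.3 to 161 in CD8 beta+ libraries). Basal markers had 0 of 7 called. ILC2 markers had 0 of 1 (0.834 to 5.69 in DN NK1.1+ libraries and 0 to 1.95 in CD8 beta+ libraries), ILC3 markers 1 of 1 higher, Kit (13.7 to 18.0 in DN NK1.1+ libraries and 0.618 to 4.29 in CD8 beta+ libraries), and CD4 and regulatory T cell markers 1 of 4 higher and 1 lower (22.5 to 38.1 in DN NK1.1+ libraries and 23.8 to 50.2 in CD8 beta+ libraries). No defining marker was at 0 in every library. Their part in the members' differences was not tested.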

How the data were processed

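Bulk RNA-seq of 6 libraries was used, 3 of DN NK1.1+ lymphocytes and 3 of CD8 beta+ T cells, grouped by their titles; the single-cell libraries were not used here. The values the authors deposited were read as estimated counts per gene, a unit inferred from the values: they have at most 2 decimals and totals that differ between libraries. The submitters' processing notes list the build mm10 and Cell Ranger 7.1.0, a single-cell tool; no aligner, counter, annotation or strand setting is given in the sources used here. All 55450 IDs matched GENCODE M21, the source of coordinates and exon lengths.

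Counts were rounded and tested with edgeR 4.0.16 in R 4.3.3 (quasi-likelihood, robust, TMM, group alone), with a minimum count of 10, a minimum total of 15 and a two-sided Benjamini-Hochberg threshold of 0.05. SE were derived from the F statistic. The fit was tested on simulated counts. Within groups, library pairs gave chi-square values of 9.07 to 23.5 per degree of freedom, so none was a copy of another. Ratios used a pseudocount of 0.5. The members, gene lists and alternatives were chosen with earlier results of these data known. Named genes were the members, sort genes and defining markers, the relatives and E proteins over 5 CPM, up to 4 called genes per list by size of change (5 CPM or more in the higher group), and the nearest profiles; other list genes were chosen after their values were seen. Promoter windows are RefSeq's. Alternatives were other scalings, filters, tools (DESeq2 1.42.0, limma-voom 3.58.1), a not robust fit, unrounded counts, a replicate block and each library left out. A related gene is not reported here.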

Additional observations from a re-analysis of the deposited data

How the results depend on the processing

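Over 16 alternatives, the calls and directions of Nfil3 (log2 fold change 1.56 to 1.72), Hhex (3.48 to 3.92) and Rora (−1.80 to −1.67) held in every case, and Id2 stayed without a call (0.22 to 0.36). With a library left out, the number of all genes called ran from 1180 (without CD8 beta+ replicate 1) to 1976, against 1822 with all libraries, the members higher from 2 to 3 and the members lower from 1 to 2. Without the filter on low counts 2 members were lower. The log2 fold change of Tox, which was not called, turned to 0.0182 with library size only and ran from −0.125 to 0.0223 with a library left out; the cause was not tested. The difference between groups in the log2 ratio of Id2 to Id3 (1.86) ran from 1.503 to 2.42 with a library left out. That of Tox to Tox2 (2.03) ran from 1.298 (without DN NK1.1+ replicate 2) to 2.82 (without DN NK1.1+ replicate 3) and was 1.297 with a pseudocount of 2. Same-numbered libraries of the groups had correlations of −0.05, 0.189 and 0.256 between their deviations, and other pairs had values from −0.254 to 0.106. Not every library correlated best with its own number. With 3 libraries per group, these values cannot decide whether the numbers pair the samples. With the replicate block 2082 genes were called, 4 members higher and 1 lower, the added one being Zbtb16 (adjusted p = 4.42e-04). Depth limits Tox2, at 0 to 11 counts per library, and Zbtb16, with 1 count in CD8 beta+ replicate 2. The counts of related lists moved by over 1.5 times in some settings. E protein targets had 1 lower gene in edgeR, against 2 to 3 in limma-voom, DESeq2, a not robust fit, no filter and the block. ILC3 genes had 1 lower, against 2 to 3 in the same settings. ILC2 genes had 1 higher, against 3 in DESeq2 and 2 with no filter or the block. The IL-7 and IL-15 list had 1 lower, against 2 in DESeq2, limma-voom and the not robust fit, and 2 higher, against 4 with library size only. Clock genes had 2 lower, against 1 with library size only and 4 with no filter. Relatives had 1 higher, against 0 in limma-voom. B cell markers had 1 higher and 1 lower gene, against 2 higher and 4 lower with no filter or the block, 2 higher in DESeq2, limma-voom, the not robust fit and without CD8 beta+ replicate 2, and 0 lower without CD8 beta+ replicate 1. Myeloid markers had 2 higher, against 4 with no filter and 1 without DN NK1.1+ replicate 1 or CD8 beta+ replicates 1 or 2. CD4 and regulatory T cell markers had 1 higher, against 0 in limma-voom and without DN NK1.1+ replicates 2 or 3 or CD8 beta+ replicates 1 or 2, and ILC2 markers 0 higher, against 1 without CD8 beta+ replicate 2.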
